A study of Mus musculus with 8 samples.

Results

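Histone H4 acetylation over 40 cell cycle and mitosis genes was described in bone-marrow-derived macrophages. The genes were taken by symbol, by a rule that uses no measured value, from a list drawn up with earlier results of these data known, out of 21887 protein-coding genes in the annotation. They form an S-phase class of 17 genes (E2f1, E2f2, E2f7, E2f8, Ccne1, Ccne2, Mcm2 to Mcm7, Pcna, Rrm1, Rrm2, Tyms and Tk1) and a mitotic class of 23 (Foxm1, Mybl2, Cdk1, Ccna2, Ccnb1, Ccnb2, Plk1, Aurka, Aurkb, Bub1, Bub1b, Cdc20, Cenpa, Cenpe, Birc5, Kif4, Kif11, Kif20a, Kif23, Prc1, Ect2, Mki67 and Top2a). For each library the deposited acetyl-H4 peaks were intersected with every gene body extended by 5 kb at both ends (the window), and the bp they cover there are termed called length. Tests were restricted to genes whose mean called length across the 8 libraries reached 500 bp, which 39 of the 40 did. Ccnb2, a mitotic cyclin gene, did not, with a mean of 484 bp and no peak in 4 libraries.

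The libraries are acetyl-H4 chromatin immunoprecipitations from macrophages grown from the marrow of C57BL/6 mice. The 4 groups are untreated cells, cells stimulated with PAM3 (PAM3CSK4, a synthetic lipopeptide sensed by Toll-like receptors), cells treated with 25HC (25-hydroxycholesterol, an oxysterol that activated macrophages make), and cells treated with 25HC and then stimulated with PAM3. Cells of 2 mice, A and B, gave 1 library each per group. Stimulation time is labelled 0 without PAM3 and 18 with it, with no unit, so PAM3 and that time cannot be told apart. Doses, sex and age are not stated in the labels, and each group rests on cultures from the same 2 mice. All 8 macrophage marker genes had peaks, with a summed called length per library of 60.4 to 72.1 kb without PAM3 and 66.6 to 91.5 kb with it. Of the 8 markers in each of 5 lists for other cell types, 6 or 7 had a peak in some library. Ly6g, S100a9, Cd3e, Ncr1, Cd209a, Col1a2, Dcn, Hbb-b1 and Gata1 had none in any. The summed length of the dendritic cell list was 24.1 to 30.9 kb without PAM3 and 19.2 to 26.9 kb with it, that of the neutrophil list 10.9 to 12.5 kb and 8.56 to 10.8 kb, and that of the lymphocyte list 10.9 to 13.7 kb and 7.64 to 11.6 kb. The fibroblast and endothelial list had 16.4 to 19.7 kb without PAM3 and 16.55 to 17.8 kb with it. For the erythroid and megakaryocyte list these were 9.99 to 11.3 kb and 9.50 to 12.5 kb. The part of these lists in the results was not tested.

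Cells about to copy their DNA switch on S-phase genes through E2F factors once cyclin-dependent kinases release these from the retinoblastoma family of pocket proteins. Mitotic genes come later, when the MuvB complex, joined by B-Myb (from Mybl2) and FoxM1, acts at CHR elements, while in resting cells MuvB with pocket proteins holds the same genes down as the DREAM complex. Acetylation of histone H4 marks active promoters and enhancers. Macrophages grown from marrow divide in culture in response to macrophage colony-stimulating factor, and Toll-like receptor ligands are known to slow that division.

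Promoters are printed for the genes whose called length changed with PAM3, with E2f1 and Mcm2 as S-phase genes that had a start peak in all 8 libraries and did not pass the test. Each sequence runs 5′ to 3′ in the direction of the gene and comes from RefSeq's promoter table (GRCm38). It spans 220 bases before the listed gene start to 30 bases from that start on, 250 bases in all. Capitals mark the CHR (TTTGAA), the CCAAT box (CCAAT) and an E2F site (TTTCGCGC or TTTGGCGC), each searched on both strands, so that a CCAAT box on the other strand reads ATTGG. None of the marked matches overlap.
Cdk1, chr10:69352883-69353132, minus strand: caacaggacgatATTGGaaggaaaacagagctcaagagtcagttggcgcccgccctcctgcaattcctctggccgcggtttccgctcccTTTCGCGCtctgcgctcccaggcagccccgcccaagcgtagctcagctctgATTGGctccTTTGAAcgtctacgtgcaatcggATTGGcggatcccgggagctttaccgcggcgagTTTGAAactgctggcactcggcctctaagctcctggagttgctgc
Plk1, chr7:122159215-122159464, plus strand: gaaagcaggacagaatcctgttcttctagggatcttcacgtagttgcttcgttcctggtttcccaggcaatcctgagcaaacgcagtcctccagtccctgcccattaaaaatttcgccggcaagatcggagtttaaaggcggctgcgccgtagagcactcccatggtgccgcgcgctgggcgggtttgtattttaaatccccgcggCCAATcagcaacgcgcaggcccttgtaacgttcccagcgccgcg
Cenpa, chr5:30666666-30666915, plus strand: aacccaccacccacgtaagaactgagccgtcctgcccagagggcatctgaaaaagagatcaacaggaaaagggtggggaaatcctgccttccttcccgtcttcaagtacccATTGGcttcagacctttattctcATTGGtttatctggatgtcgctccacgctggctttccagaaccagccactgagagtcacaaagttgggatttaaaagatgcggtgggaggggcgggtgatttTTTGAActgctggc
Kif4, chrX:100625845-100626094, plus strand: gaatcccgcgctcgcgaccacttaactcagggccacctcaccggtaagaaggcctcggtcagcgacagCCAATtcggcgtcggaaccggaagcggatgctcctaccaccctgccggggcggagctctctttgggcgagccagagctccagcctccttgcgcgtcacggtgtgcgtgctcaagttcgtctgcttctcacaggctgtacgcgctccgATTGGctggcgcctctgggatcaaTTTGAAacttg
Prc1, chr7:80294231-80294480, plus strand: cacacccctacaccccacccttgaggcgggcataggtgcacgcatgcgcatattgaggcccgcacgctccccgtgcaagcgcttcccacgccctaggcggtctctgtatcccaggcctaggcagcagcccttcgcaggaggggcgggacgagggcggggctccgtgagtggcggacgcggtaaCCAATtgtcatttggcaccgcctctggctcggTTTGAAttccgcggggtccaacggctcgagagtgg
E2f8, chr7:48881567-48881816, minus strand: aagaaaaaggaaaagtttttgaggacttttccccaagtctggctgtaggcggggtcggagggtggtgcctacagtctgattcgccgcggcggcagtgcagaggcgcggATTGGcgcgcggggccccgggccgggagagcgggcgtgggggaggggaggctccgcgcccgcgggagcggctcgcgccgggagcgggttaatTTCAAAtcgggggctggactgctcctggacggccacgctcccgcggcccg
Tk1, chr11:117825985-117826234, minus strand: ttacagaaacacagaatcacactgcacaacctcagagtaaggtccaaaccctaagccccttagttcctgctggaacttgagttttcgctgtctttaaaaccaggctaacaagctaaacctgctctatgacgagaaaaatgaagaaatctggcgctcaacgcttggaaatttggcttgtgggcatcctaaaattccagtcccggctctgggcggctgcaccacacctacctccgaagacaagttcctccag
E2f1, chr2:154569397-154569646, minus strand: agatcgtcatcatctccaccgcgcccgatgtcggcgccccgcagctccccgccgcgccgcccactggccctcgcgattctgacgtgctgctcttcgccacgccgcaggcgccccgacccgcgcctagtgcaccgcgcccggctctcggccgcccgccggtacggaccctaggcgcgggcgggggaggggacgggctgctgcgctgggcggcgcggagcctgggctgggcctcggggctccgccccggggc
Mcm2, chr6:88898751-88899000, minus strand: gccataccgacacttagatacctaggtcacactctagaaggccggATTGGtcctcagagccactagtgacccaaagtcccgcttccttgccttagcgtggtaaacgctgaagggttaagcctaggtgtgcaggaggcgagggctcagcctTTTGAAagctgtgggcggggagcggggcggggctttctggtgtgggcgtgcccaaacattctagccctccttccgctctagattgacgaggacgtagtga

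Cdk1, the kinase gene that drives entry into mitosis, held all 3 motifs. Counting the first base of the gene as 1 and the base before it as −1, its CHR matches begin at −71 and −15, its E2F match at −131 and its CCAAT matches at −208, −80 and −48. Cenpa, Kif4, Prc1 and E2f8 each held a CHR and a CCAAT box. Plk1 held a CCAAT box alone, at −14, and Tk1 held none of the 3 motifs in this window. The E2f1 window held none either. However, the listed E2f1 start (154569426) lies inside the annotated gene body, which on the minus strand begins at 154569892. The printed E2f1 window thus lies within the gene, and the bases before its annotated 5′ end were not searched. Mcm2, of the S-phase class, held a CHR at −70 and a CCAAT box at −175.

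Over the 34 members with a listed promoter, the CHR was in 11 of 19 mitotic members (57.9%) and 3 of 15 S-phase members (E2f2, E2f8 and Mcm2), against 15.2% of all 32851 listed promoters. The CCAAT box was in 17 of the 19 (89.5%) and 11 of the 15 (73.3%), against 33.5% of all. The E2F letters were in Mcm5, Mcm6 and Mcm7 (3 of the 15 S-phase members) and in Cdk1 (5.26% of the mitotic ones), against 0.706% of all. A match describes the letters and is no measured binding site. Ccne2, Mcm4, Foxm1, Ccna2, Aurkb and Kif20a were not looked up.

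Library depth is unknown, since the peak lists hold no read counts. The lists held 48446 to 54552 peaks that covered 56.6 Mb (PAM3 A) to 72.4 Mb (PAM3 B), and the median of each library was subtracted on the log2 scale before testing. Between the libraries of a group, overlapping peaks correlated in length by Spearman's rho of 0.681 to 0.780, but in the authors' deposited fold by only 0.103 to 0.195 (41552 to 42694 peaks). Length is the measure used here. The cells were measured in bulk, so fewer cycling cells and less acetylation per cell cannot be told apart. Windows of 29 members overlap the window of another protein-coding gene, and a peak there counts for both.

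Most members carried acetylation at the gene start in every group. Of the 34 members with a listed start, 25 (73.5%) had a peak within 1 kb of it in all 8 libraries, against 45.5% of 17492 genes with a listed start. Counting only peaks with a −log10 q of at least 5, 2 members (5.88%) did, against 3.44% of genes. In single libraries the number was 29 (untreated B) to 34 (25HC A). Peaks took up between 2.03% of the window (Ccnb2) and 24.6% (Aurkb, a mitotic kinase gene), averaged over the libraries. Ect2, a cytokinesis factor gene, had the longest called length (8601 to 13413 bp), and Kif20a, a cytokinesis motor gene, the shortest of the tested members (840 to 981 bp). Merging the peaks of the 8 libraries gave 180 regions in the 40 windows, of which 59 had a peak in all 8 libraries and 39 in 1 library alone.

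**Figure D1:**
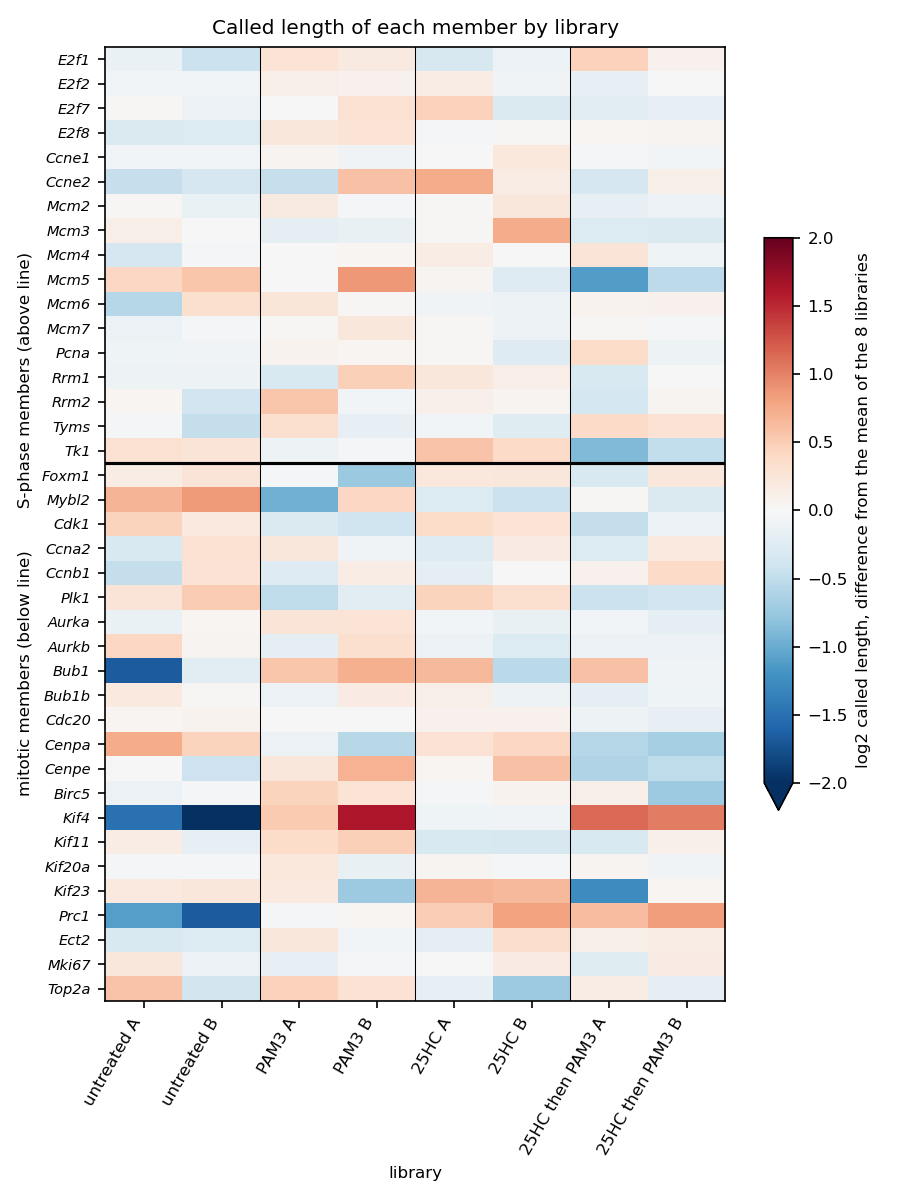
Heat map of the 39 tested members (rows, S-phase above the line and mitotic below) by library (columns), coloured by log2 called length as the difference from the member's mean over the 8 libraries. Most cells are pale, and Kif4 and Prc1 are low in both untreated libraries. The colour scale ends at −2, below which Kif4 in untreated B lies at −2.66.

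PAM3 against untreated cells asks how stimulation changes the mark over these genes without added oxysterol. With PAM3, called length rose over Kif4, a chromosome-bound kinesin gene, over Prc1, which bundles the microtubules of the spindle midzone, and over E2f8, an E2F that represses its targets. No member passed as lower. These are 3 of 39 members, where 3.87% of the 14589 genes tested passed, 1.89% rising and 1.97% falling (limma, Benjamini-Hochberg adjusted p under 0.05). With the mouse as a block, 0 members passed and 1.15% of all genes did. Cenpa and Plk1 had values of −0.93 (adjusted p = 0.0560) and −0.75 (adjusted p = 0.0573), which missed the threshold here. Cenpa passed as lower, as the one member to pass, without the median subtraction, and Plk1 passed as lower with the gene body alone and with the bodies of other genes left out.

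Kif4 (chromosome X, 100626065 to 100727271) had 636 and 0 bp in untreated A and B and 3620 and 9725 bp in PAM3 A and B. The groups do not overlap, and the PAM3 pair was far apart. The log2 change was 3.15 ± 0.48 (SE; adjusted p = 0.0336, or 0.0732 with the block), its size set partly by the 500 bp added before the logarithm. Prc1 (chromosome 7, 80294445 to 80316259) went from 898 and 431 bp to 2119 and 2688 bp, a log2 change of 1.39 ± 0.22 (SE; adjusted p = 0.0366, or 0.0751 with the block). E2f8 (chromosome 7, 48866429 to 48882073) went from 2345 and 2310 bp to 3099 and 3839 bp, a log2 change of 0.53 ± 0.09 (SE; adjusted p = 0.0410, or 0.0763 with the block). The untreated pair of E2f8 lay close together and below the PAM3 pair. In fits without 1 library, E2f8 passed in none, Prc1 only without untreated A, and Kif4 only without untreated A or PAM3 A. Cenpa passed as lower without PAM3 A, and Mybl2, the B-Myb gene, without PAM3 B.

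The same question in cells that had the oxysterol first is put by 25HC then PAM3 against 25HC, in 4 other libraries. Here called length fell over Tk1, the thymidine kinase gene of nucleotide salvage, over Plk1, a kinase gene of mitotic entry and spindle assembly, and over Cenpa, the histone H3 variant that marks centromeres. No member rose. Again 3 of 39 members passed, where 5.02% of all tested genes did, 2.73% rising and 2.3% falling. With the block, 0 members and 1.93% of all genes passed.

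Tk1 (chromosome 11, 117815519 to 117826087) had 4538 and 4140 bp with 25HC and 1357 and 2081 bp with 25HC then PAM3. Its log2 change was −1.17 ± 0.15 (SE; adjusted p = 0.0218, or 0.0518 with the block). Plk1 (chromosome 7, 122159435 to 122169884) went from 2105 and 1991 bp to 935 and 1081 bp, a log2 change of −0.78 ± 0.15 (SE; adjusted p = 0.0464, or 0.0716). Cenpa (chromosome 5, 30666877 to 30674837) went from 2597 and 2993 bp to 1221 and 1196 bp, a log2 change of −0.97 ± 0.18 (SE; adjusted p = 0.0464, or 0.0631). In all 3 the groups stand well apart. The Plk1 value turned to 0.93 with a −log10 q of at least 5 (adjusted p = 0.758) and to 0.46 with equal covered length cut by −log10 q (adjusted p = 0.900). The call of Tk1 ended without 25HC A or 25HC B, and those of Plk1 and Cenpa held only without PAM3 A or PAM3 B.

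Averaged over both arms, 4 libraries with PAM3 stand against 4 without, which gives the most precise view of the stimulus. Called length fell over Cdk1, Plk1, Cenpa and Tk1 and rose over Kif4, Prc1 and E2f8. These 7 are 17.9% of the tested members, where 11.8% of all tested genes passed, 5.94% rising and 5.88% falling. With the block Cdk1, Plk1, Cenpa, Tk1 and Kif4 passed, and so did 8.47% of all genes. With the peaks of each library cut by their deposited −log10 q to the same covered length, 0 members and 186 genes passed, and with a −log10 q of at least 5, 0 of either. Cut to that length by peak length instead, 3 members passed (Prc1, Plk1 and Kif4), and with bp weighted by the deposited fold 3 (Cenpa, Prc1 and Kif4). With the gene body alone 5 passed (E2f8, Plk1, Tk1, Birc5 and Kif4), and with 10 kb flanks 5 (Cenpa, Foxm1, Cdk1, Kif11 and Kif4).

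Among the nucleotide synthesis genes, Tk1 had 4012, 3803, 4538 and 4140 bp in the 4 libraries without PAM3 (untreated A and B, 25HC A and B). It had 2540, 3173, 1357 and 2081 bp in those with it (PAM3 A and B, 25HC then PAM3 A and B), all lower. The average log2 change was −0.76 ± 0.11 (SE; adjusted p = 0.0137, or 0.0313 with the block). Rrm1 and Rrm2, the ribonucleotide reductase subunit genes, and Tyms, the thymidylate synthase gene, had values of −0.07, 0.10 and 0.41 and did not pass. With the bodies of other genes left out of the windows, Tk1 did not pass, and the body of Afmid, the next gene, holds the longest peaks of the window.

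E2f8 rose by 0.29 (standard error 0.06, adjusted p = 0.0400, or 0.0671 with the block). Its libraries overlapped, with 2310 to 2903 bp without PAM3 and 2829 to 3839 bp with it. E2f1, an activator of S-phase genes, had 2546 to 3298 bp without PAM3 and 3992, 4424, 4880 and 3939 bp with it. All 4 PAM3 libraries of E2f1 were higher, but its log2 value of 0.50 did not pass (adjusted p = 0.0560). With the bodies of other genes left out of the windows, E2f1 did pass. E2f2 had a value of 0.02 and E2f7 of −0.03.

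Cdk1 (chromosome 10, 69335146 to 69352912) had 6302, 5131, 5474 and 5386 bp without PAM3 and 3128, 3434, 2865 and 4078 bp with it. The log2 change was −0.64 ± 0.11 (SE; adjusted p = 0.0229, or 0.0487 with the block), and no other gene's window overlaps that of Cdk1. Plk1 had 1978, 2401, 2105 and 1991 bp without PAM3 and 798, 1344, 935 and 1081 bp with it, a log2 change of −0.76 ± 0.11 (SE; adjusted p = 0.0122, or 0.0245). With only peaks of a −log10 q of at least 5 the Plk1 value turned to 0.76 (adjusted p = 0.695). In Plk1 the mean called length with PAM3, 1040 ± 234 bp (SD, n = 4), stood against 2119 ± 197 bp without. Aurka and Aurkb, the other mitotic kinase genes, had values of 0.14 and −0.04 and did not pass.

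The window of Cenpa overlaps that of Slc35f6, and that of Plk1 holds the body of Ern2. Cenpa had 4053, 3138, 2597 and 2993 bp without PAM3 and 1723, 1415, 1221 and 1196 bp with it. At −0.95 with a standard error of 0.13, its log2 change was the largest fall among the members that passed (adjusted p = 0.0122, or 0.0225 with the block). Cenpe, a kinetochore motor gene, and Birc5, which encodes the passenger protein survivin, did not pass (−0.10 and 0.05).

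Kif4 had 636, 0, 2321 and 2467 bp without PAM3 and 3620, 9725, 6119 and 5997 bp with it, a log2 change of 2.15 ± 0.34 (SE; adjusted p = 0.0175, or 0.0403 with the block). All 4 PAM3 libraries of Kif4 were higher. Prc1 had 898, 431, 3424 and 4595 bp without PAM3 and 2119, 2688, 3834 and 4805 bp with it. Its rise was 0.73 ± 0.16 (SE; adjusted p = 0.0383, or 0.0719 with the block), and its 25HC libraries overlapped those of 25HC then PAM3. Kif23, another midzone kinesin gene, was lower in every PAM3 library (1904 to 5726 bp against 6469 to 8767 bp), but did not pass (−0.87, adjusted p = 0.166).

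In the fits without 1 library, Cenpa, Plk1 and Tk1 passed each time. Kif4 did not pass without 25HC A or 25HC B. Cdk1 did not pass without untreated A, PAM3 B, 25HC A or 25HC B. Prc1 passed only without untreated A and E2f8 only without PAM3 A. By order alone, 6 tested members (15.4%) were lower in all 4 PAM3 libraries than in all 4 others, namely Mcm3, a helicase subunit gene, Tk1, Cdk1, Plk1, Cenpa and Kif23, where 9.66% of all tested genes were. In the other direction E2f1 and Kif4 (5.13%) were higher, where 7.11% of all genes were.

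**Figure D2:**
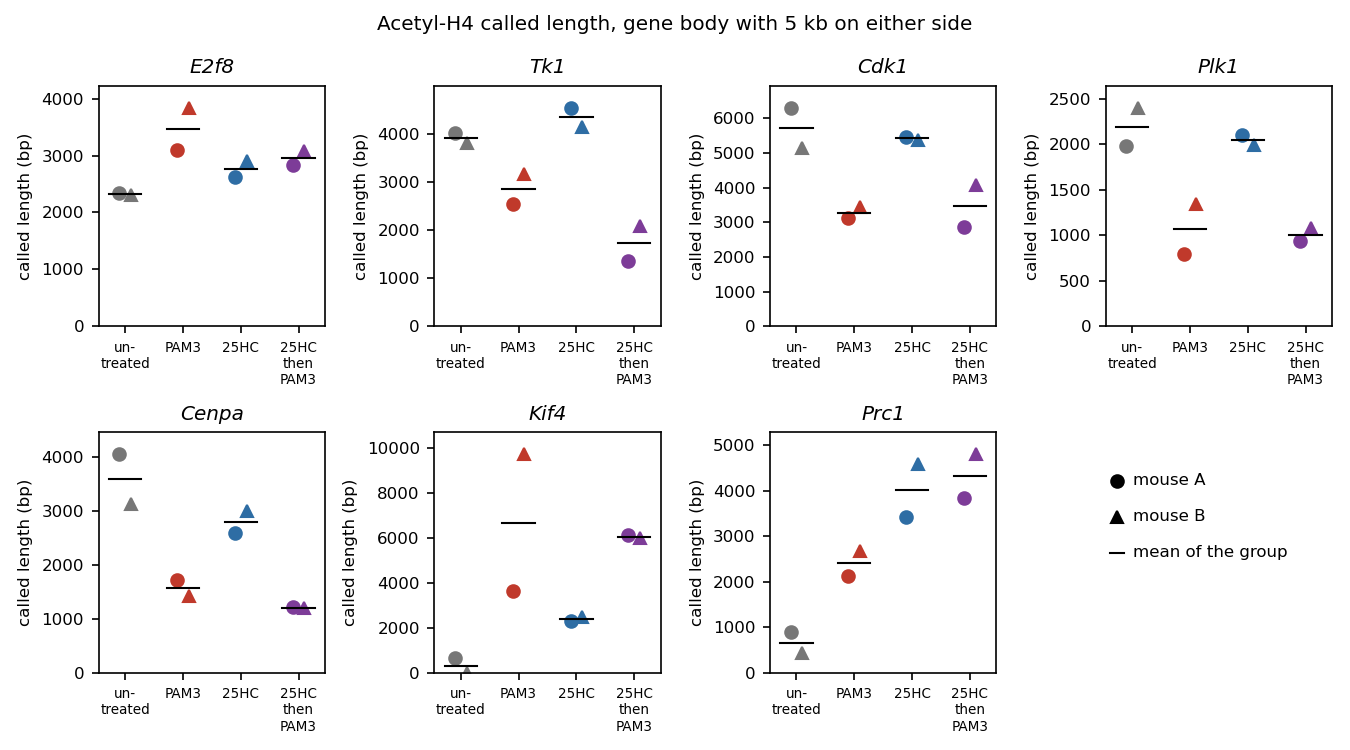
Called length in bp (vertical axes, from 0) of the 7 members that passed in any comparison, by group, with a circle for mouse A, a triangle for mouse B and a bar for the group mean (2 libraries a group). Tk1, Cdk1, Plk1 and Cenpa sit lower in both groups with PAM3, Kif4 sits higher in both, and Prc1 is low in the untreated libraries alone.

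**Figure D3:**
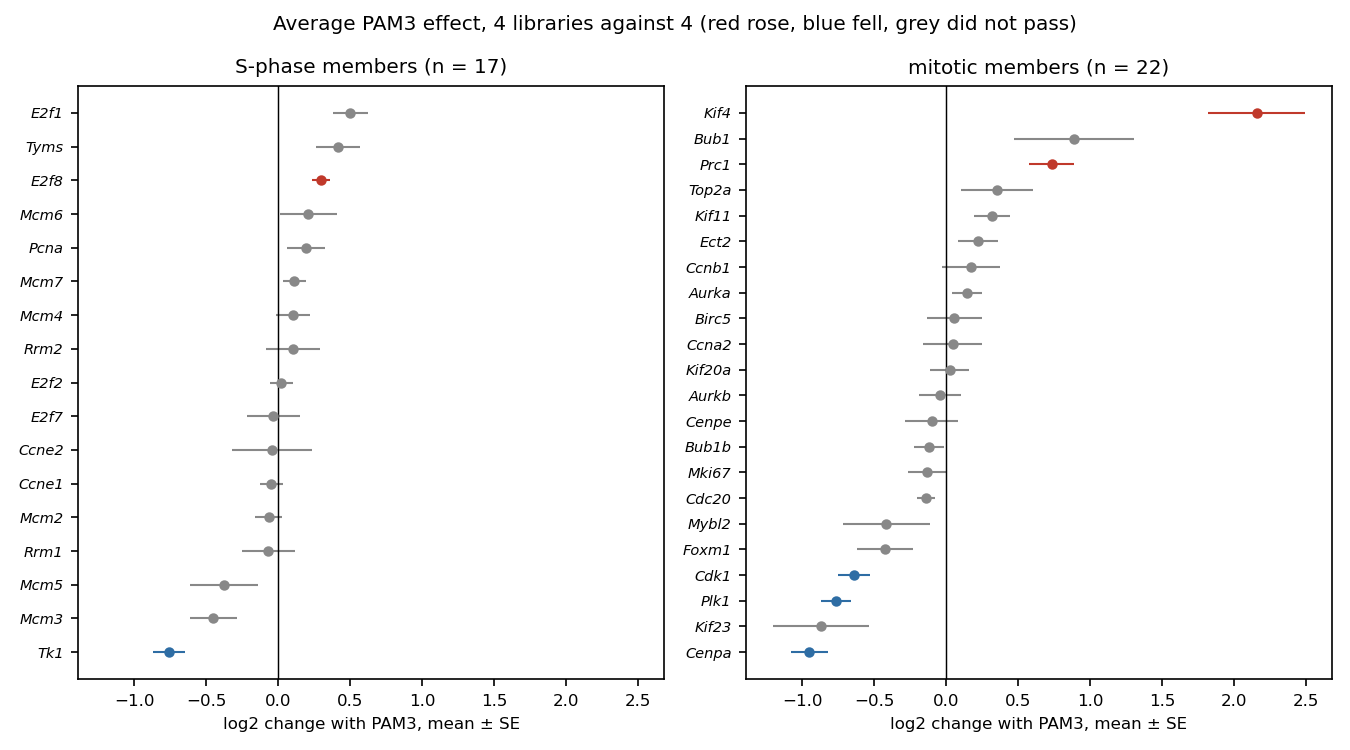
Average PAM3 effect (log2 change, 4 libraries with PAM3 against 4 without, point and standard error) for the 17 S-phase and 22 mitotic members tested. Red members rose, blue members fell and grey members did not pass; the span runs from −0.95 for Cenpa to 2.15 for Kif4.

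The peaks behind these sums show where the length went. At Cdk1, Plk1, Cenpa, Cenpe and Ect2, all of the mitotic class, peaks without PAM3 ran from the promoter across the gene start into the first transcribed bases. With PAM3 fewer bases just downstream of the start were in a peak in each of these genes. The 1000 bp from the start on were used to measure this, a window chosen after the peaks had been seen.

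Cdk1 had 1000 bp called of those 1000 in each of the 4 libraries without PAM3, and 0, 291, 178 and 283 bp in PAM3 A, PAM3 B, 25HC then PAM3 A and 25HC then PAM3 B. Plk1 had 1000 bp in each library without PAM3 and 0, 336, 0 and 0 bp with it. Cenpe had 1000 bp in each without PAM3 and 174, 0, 813 and 25 bp with it. In these 3 genes the downstream side was fully covered in each library without PAM3 and in none with it, although 25HC then PAM3 A kept most of it at Cenpe. Cenpa had 1000, 1000, 669 and 910 bp without PAM3 and 224, 0, 0 and 319 bp with it. Ect2 had 479 to 541 bp without PAM3 and 0 bp in all 4 libraries with it. The Ect2 peak therefore ended before the start in every stimulated library.

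The 1000 bp before the start kept more of their peaks. Plk1 had 751 to 1000 bp there without PAM3 and 798 to 1000 bp with it, and Cenpe 789 to 1000 bp and 774 to 1000 bp, so that these overlapped. Cenpa had 1000 bp in each library without PAM3 and 769 to 878 bp with it, and Ect2 1000 bp and 854 to 894 bp. Cdk1 lost the upstream side as well, from 491 to 547 bp to 0, 236, 222 and 0 bp. In all 4 PAM3 libraries Cdk1 kept a peak further in, which began 709 to 1081 bp after the start and ended 2299 to 2632 bp after it.

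Of the 24 members with a mean of at least 250 bp downstream of the start, 8 (33.3%) were lower there in all 4 PAM3 libraries, where 8.08% of 9334 genes were. These are Mcm3, Rrm1, Cdk1, Plk1, Cdc20, Cenpa, Cenpe and Ect2. Of the same 24, 0 were higher, where 3.67% of genes were. These counts depend on the cutoff, a mean over all 8 libraries. It left out E2f2, higher in all 4 PAM3 libraries (68 to 1000 bp against 0 to 9 bp). Aurka, lower in all 4 (15 to 25 bp against 33 to 51 bp), was left out too. Ect2 met it only through its libraries without PAM3. Differences at Mcm3 (469 to 503 bp against 505 to 532 bp) and Cdc20, the anaphase activator gene (512 to 525 bp against 532 to 542 bp), were small. Rrm1 had 526 to 727 bp with PAM3 and 771 to 790 bp without. On the upstream side 6 of 31 members (19.4%) were lower in all 4 (Mcm3, Mcm6, Cdk1, Bub1b, Cenpa and Ect2), where 6.31% of 8494 genes were, and Mcm2 and Rrm1 (6.45%) were higher, where 6.31% were. The whole 2 kb around the start gave 7 of 31 members lower (22.6%) and 0 higher, where 8.69% and 5.62% of 9628 genes were. Those 7 are Mcm3, Ect2, Cenpe, Cdc20, Cenpa, Plk1 and Cdk1.

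The limma model was also run on called bp within 1 kb on either side of the start, upstream and downstream bases together. For the average PAM3 effect, Ect2 fell by 0.55 on the log2 scale (adjusted p = 0.00505), Plk1 by 0.66 (adjusted p = 0.0290), Kif11, a spindle-pole kinesin gene, by 0.72 (adjusted p = 0.0349) and Cdk1 by 1.37 (adjusted p = 0.0379). Kif4 rose by 0.75 (adjusted p = 0.0222) and Prc1 by 0.99 (adjusted p = 0.0395), and both had 0 bp in untreated A and B. After 25HC, Kif4 did not rise, with 993 and 919 bp for 25HC and 912 and 932 bp for 25HC then PAM3. Prc1 had 1262 and 1852 bp for 25HC and 1852 and 1883 bp for 25HC then PAM3. In all, 6 of 31 members with enough called length there passed, where 4.94% of 9628 genes did. Cenpa and Cenpe did not pass this test. With the block only Ect2 passed (adjusted p = 0.0228), and 2.95% of genes did. Ect2 also passed without each of the 8 libraries in turn. Plk1, Cdk1 and Prc1 passed only without PAM3 A or PAM3 B, Kif11 only without PAM3 A or 25HC then PAM3 A, and Kif4 not without 25HC A, 25HC B or either library of 25HC then PAM3. Ect2 had 1502, 1541, 1479 and 1539 bp without PAM3 and 864, 854, 894 and 862 bp with it, and also fell in each arm alone (−0.54, adjusted p = 0.0256, and −0.55 after 25HC, adjusted p = 0.0199), where the block gave 0.0784 and 0.0606 and leaving out any 1 untreated or 25HC library ended the call. Over its whole window Ect2 had a value of 0.22 and did not pass (8601 to 13413 bp without PAM3 and 10735 to 11998 bp with it).

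**Figure D4:**
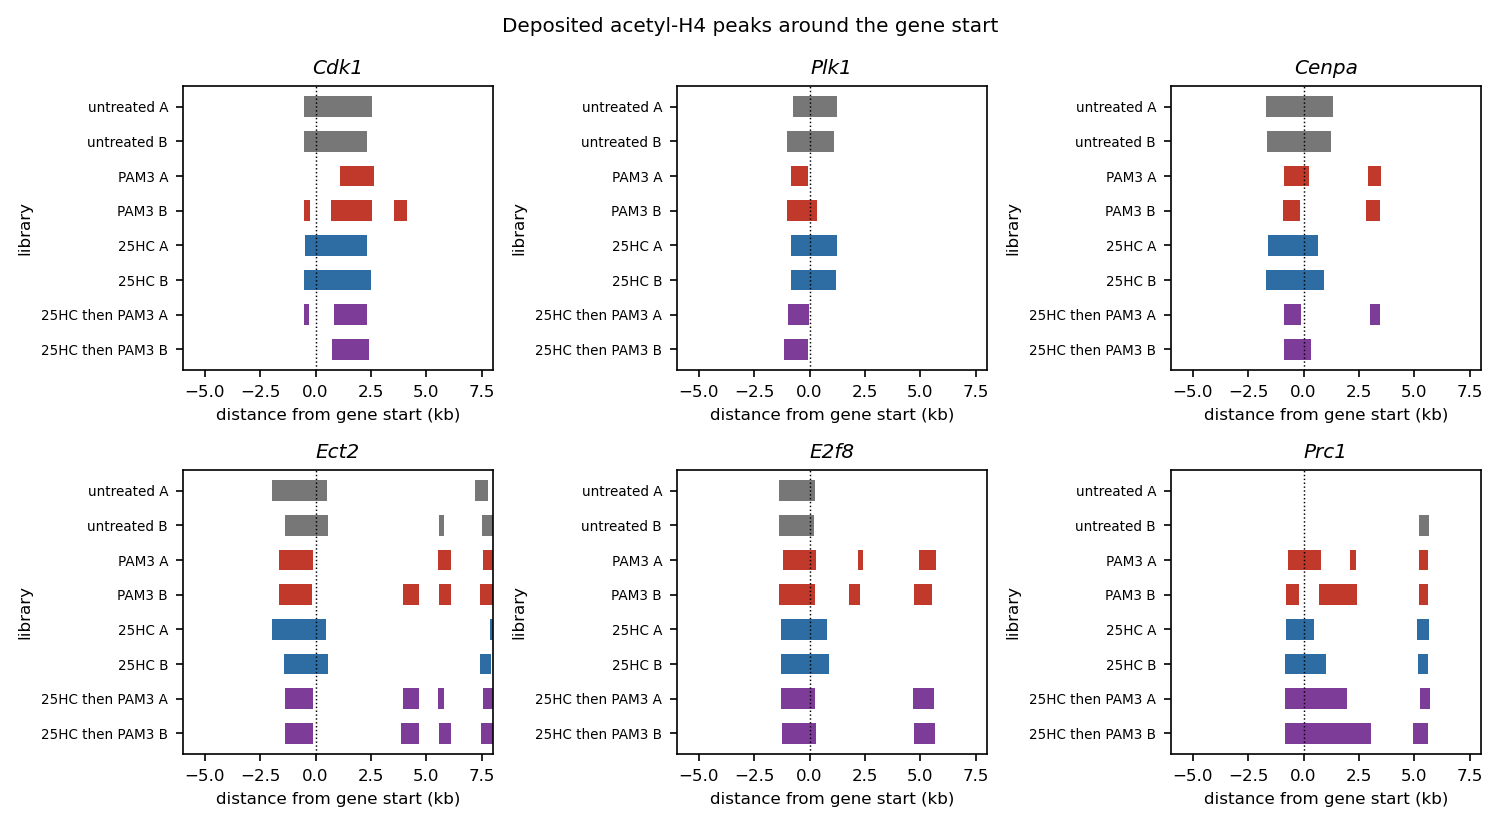
Deposited peaks (bars) of 6 members by library (rows), against the distance from the listed gene start in kb, in the direction of the gene. At Cdk1, Plk1, Cenpa and Ect2 the bars cross the dotted start line in all grey and blue libraries, which are those without PAM3. With PAM3 (red and purple) the Cdk1 bars leave the line bare and begin again after it, those of Ect2 stop before it, and those of Plk1 and Cenpa stop before it or shortly after it; E2f8 gains a bar near 4.7 kb and Prc1 lacks a start bar in both untreated libraries.

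In E2f8 the start region had 1471 to 2155 bp in every library. A body region 4682 bp from the start (chromosome 7, 48875889 to 48876914) had 781, 816, 941 and 942 bp in the 4 libraries with PAM3 and none in the 4 without. Within 1 kb of the start alone, E2f8 had a value of −0.16 for the average PAM3 effect (adjusted p = 0.0570), against the rise over its whole window. At the start E2f8 rose by 0.44 there with 25HC against untreated (adjusted p = 0.0417, where 0.301% of genes passed) and fell by 0.39 with 25HC then PAM3 against 25HC (adjusted p = 0.0195, where 2.74% passed). With the block these were 0.166 and 0.0601. The first passed only without PAM3 A or PAM3 B, and the second was lost without any 1 of the untreated or 25HC libraries.

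Tk1 lost length 1474 bp upstream of its listed start (chromosome 11, 117827488 to 117831087), in the body of Afmid. There it had 2813, 2683, 3158 and 2466 bp without PAM3 and 1553, 2038, 892 and 1666 bp with it. A Tk1 body region (chromosome 11, 117823967 to 117824692) was absent from both libraries of 25HC then PAM3 and held 523 to 726 bp in the other 6. Within 1 kb of the start, peaks were found only with 25HC alone, 276 bp in 25HC A and 565 bp in 25HC B. The peak of 25HC A lay wholly before the start. That of 25HC B crossed it, with 172 bp before it and 393 bp from it on. Peaks there count for Tk1 and Afmid alike, and the genes cannot be told apart.

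Kif4's start region, which it shares with the start of Pdzd11, was absent from both untreated libraries and held 900 to 1280 bp in the other 6. Body regions of Kif4, 18316 and 27042 bp in, had peaks in all 4 PAM3 libraries (821 to 4204 bp and 563 to 1339 bp). Each also had a peak in 1 of the 25HC libraries (1524 and 775 bp) and none in the untreated ones. Prc1's start region, inside the annotated body of Rccd1, was likewise absent from both untreated libraries and held 1262 to 3875 bp in the other 6. Within 1 kb of the start, Prc1 and Kif4 rose with PAM3 against untreated by 1.78 and 1.53 (adjusted p = 0.0358 and 0.0142; 0.103 and 0.0533 with the block), where 1.85% of genes passed. That call of Prc1 held only without PAM3 A or PAM3 B, and that of Kif4 ended without 25HC then PAM3 B. In the 1000 bp from its start on, Prc1 had 0 and 0 bp in the untreated pair and 299 to 1000 bp in the other 6 libraries. Kif11's start region had 748 to 1618 bp in 6 libraries and none in either library of 25HC then PAM3. Within 1 kb of the start Kif11 fell with 25HC then PAM3 by 1.51 against 25HC (adjusted p = 0.0187, or 0.0584 with the block) and by 1.42 against PAM3 (adjusted p = 0.0357, or 0.108, where 0.987% of genes passed). Both calls ended without any 1 untreated or 25HC library, and the second also without 25HC then PAM3 B.

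**Figure D5:**
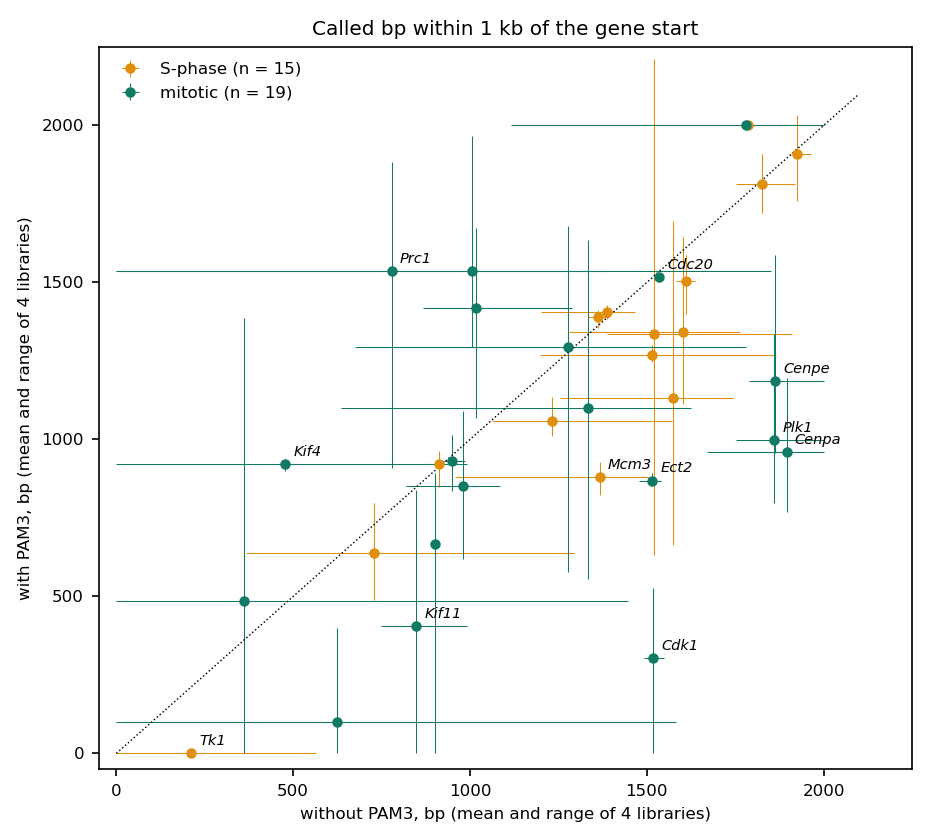
Called bp within 1 kb of the listed gene start for 34 members (orange S-phase, green mitotic), as the mean of the 4 libraries with PAM3 (vertical) against the mean of the 4 without (horizontal), with bars for the range of each. Points below the dotted line of equality had less called length with PAM3; Cdk1, Plk1, Cenpa, Cenpe and Ect2 lie below it with ranges that do not overlap, and Kif4 and Prc1 lie above it.

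25HC against untreated cells asks what the oxysterol does on its own. No member passed (limma, 4 at an unadjusted p under 0.05), where 0.0343% of all tested genes did. Prc1 had the largest value. It went from 898 and 431 bp in the untreated pair to 3424 and 4595 bp in the 25HC pair, a log2 value of 2.03 ± 0.22 (SE; adjusted p = 0.148, or 0.517 with the block). The pairs do not overlap, and the adjusted p was 0.0337 without untreated A and 0.0456 without untreated B. Over its window Kif4 went from 636 and 0 bp to 2321 and 2467 bp and did not pass (95% interval of the log2 value 0.82 to 3.19, adjusted p = 0.676). Within 1 kb of its start, where untreated cells had no peak, Kif4 rose with 25HC by 1.55 (adjusted p = 0.0346, or 0.143 with the block), a call that held only without untreated A or untreated B. Mybl2 was lower (3268 and 3717 bp against 1325 and 1201 bp), a value of −1.12 (95% interval −2.17 to −0.06) that did not pass after adjustment.

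Over 4 libraries with 25HC against 4 without, 0 members passed (limma, 4 at an unadjusted p under 0.05), where 0.0685% of all genes did. Prc1 was higher in all 4, a value of 1.38 with an adjusted p of 0.0661 (0.168 with the block), and was the only tested member with that order, where 1.03% of genes had it. Aurka was lower in all 4 (907 to 972 bp against 985 to 1537 bp), where 1.89% of genes were, and did not pass (−0.22, adjusted p = 0.506). Mcm5, a helicase subunit gene, had a value of −0.92 (adjusted p = 0.225).

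25HC then PAM3 against PAM3 alone asks whether the oxysterol shifts the stimulated state. Again 0 members passed (limma, 7 at an unadjusted p under 0.05), where 1.3% of all genes did. The smallest p values belonged to Tk1 (−0.62, adjusted p = 0.141), Cenpe (−1.01, adjusted p = 0.153) and Mcm5 (−1.25, adjusted p = 0.164), all lower with 25HC. Cenpe had 6536 and 10806 bp with PAM3 and 3669 and 4253 bp with 25HC then PAM3. Mcm5 had 1891 and 4559 bp and then 665 and 1361 bp, so the groups stood apart but the PAM3 pair was wide.

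The PAM3 response did not differ detectably with and without 25HC for any member. In the test of that difference 0 members passed (limma, 5 at an unadjusted p under 0.05), where 0.0% of all genes did. Cdk1, Plk1 and Cenpa had differences of 0.05, −0.04 and −0.04, with 95% intervals from −0.51 to 0.60, −0.55 to 0.48 and −0.67 to 0.60. The values were −1.31 for Prc1 (adjusted p = 0.267), −1.53 for Cenpe (adjusted p = 0.280), −0.82 for Tk1 (adjusted p = 0.314) and −0.47 for E2f8 (adjusted p = 0.323). For Kif4 the 95% interval ran from −3.67 to −0.32 (adjusted p = 0.423). These differences are below 0 and none passed.

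The class medians lay near those of all genes. For the average PAM3 effect the median log2 change was 0.02 over 17 S-phase members, −0.01 over 22 mitotic members and −0.01 over all tested genes. In the S-phase class 9 values were above 0 and 8 below, and in the mitotic class 11 and 11. The medians of the average 25HC effect were 0.02, −0.04 and 0.01. Between replicates the class median varied with an SD of 0.06 for S-phase and 0.09 for mitotic members, on the same scale.

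In the S-phase class the arms had medians of opposite sign. With PAM3 against untreated the median was 0.20, with 14 of 17 values above 0, and after 25HC it was −0.15, with 10 of 17 below 0. All genes had medians of −0.01 and −0.02. The median difference between these responses was −0.38 over S-phase members (15 of 17 below 0). It was −0.07 over mitotic members (15 of 22 below 0) and −0.01 over all genes. Among related genes described below, it was 0.02 over 32 further replication genes (18 above 0). Over 40 further mitotic genes it was −0.17 (32 below 0), and over the 28 genes of the G1 list −0.10 (16 below 0). Median values of the helicase genes were 0.16 and −0.12 in the 2 arms, and those of the E2F genes 0.36 and −0.03. No member of either role passed the test of the difference, and members are not replicates, so these medians are descriptions.

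Members that did not pass spread widely. In the S-phase class the average PAM3 values of the 15 that did not pass ran from −0.45 for Mcm3 to 0.50 for E2f1. Ccne1 and Ccne2, the cyclin E genes, had values near 0 (−0.05 and −0.04), although Ccne2 ranged from 1081 to 3297 bp. Pcna, the sliding clamp gene, had 2172 to 3486 bp and a value of 0.19. Among the 17 mitotic members that did not pass, values ran from −0.87 for Kif23 to 0.89 for Bub1, a spindle checkpoint kinase gene. For Bub1 the untreated pair (906 and 3256 bp) lay below the PAM3 pair (5322 and 7065 bp), while the 25HC pair was wide (6032 and 2490 bp) and the adjusted p was 0.247. Foxm1 had a value of −0.42 and Mybl2 one of −0.42, with 579 and 2743 bp in the PAM3 pair of Mybl2. Mki67, the Ki-67 gene, and Top2a, the topoisomerase gene that disentangles chromosomes, had values of −0.14 and 0.35, with long called lengths in every library (6539 to 9901 bp and 3464 to 9559 bp).

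Genes beside the members in the same pathways were taken from lists drawn up with earlier results of these data known. Of 28 G1 cyclin, kinase, inhibitor and pocket protein genes, 3 rose and 0 fell for the average PAM3 effect, with a list median of 0.11. Lin52, a MuvB subunit gene, rose by 1.24 (adjusted p = 0.00261), with 2273, 2584, 2625 and 2525 bp without PAM3 and 6411, 8108, 5590 and 6151 bp with it. All 4 PAM3 libraries of Lin52 stood above the others. Cdkn2b, an inhibitor of the G1 kinases, rose by 0.40 (adjusted p = 0.0183) and Ccnd2, a D-type cyclin gene, by 0.63 (adjusted p = 0.0304; 0.0596 blocked by mouse). Cdkn2a, the inhibitor gene beside Cdkn2b, rose with 25HC then PAM3, against 25HC by 0.79 (adjusted p = 0.0269; 0.0565 blocked by mouse) and against PAM3 by 0.87 (adjusted p = 0.0404, or 0.0936).

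Of 32 further replication genes, 2 rose and 0 fell, with a list median of 0.00. Lig1, the ligase gene that joins lagging-strand fragments, rose by 1.47 (adjusted p = 0.00261), with 1662, 1932, 1164 and 1636 bp without PAM3 and 3453, 4517, 6733 and 6918 bp with it. With the block Lig1 and Gins4 passed. Gins4, a replicative helicase cofactor gene, had a value of 0.53 (adjusted p = 0.0502; 0.0280 blocked by mouse). Pola2, a subunit gene of the primase polymerase, rose by 0.73 (adjusted p = 0.0317; 0.0630 blocked by mouse). In single arms Pole, the leading-strand polymerase gene, fell by 0.76 with PAM3 against untreated (adjusted p = 0.0282, or 0.0626 with the block). Mcm10, a replication initiation factor gene, fell by 0.88 with 25HC then PAM3 against 25HC (adjusted p = 0.0458, or 0.0851 with the block).

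Of 40 further mitotic genes, 3 rose and 0 fell, with a list median of 0.17. Kif15, a spindle kinesin gene, rose by 0.77 (adjusted p = 0.00453), with 6108 to 7332 bp without PAM3 and 9612 to 13693 bp with it. Kif14, a cytokinesis kinesin gene, rose by 0.75 (adjusted p = 0.0370; 0.0682 blocked by mouse). Cenph, a kinetochore gene, rose by 0.63 (adjusted p = 0.0157), and its window overlaps that of Ccnb1. The shares of these lists that passed, 3 of 28, 2 of 32 and 3 of 40, lie near or below the 11.8% of all tested genes.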

How the data were processed

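Acetyl-H4 chromatin immunoprecipitation libraries of 4 groups, each with mouse A and mouse B, were deposited as 8 broad-peak lists, 1 per library. The submitters' processing notes name GSNAP, GRCm38 and MACS2 2.1.0, and the labels state neither calling thresholds nor a control library. The authors' lists give peak positions in bp, a score, a fold over background, and −log10 p and −log10 q. These deposited columns are the authors' values per peak; in 99.994 to 100.0% of peaks the score equals 10 times −log10 q rounded down. No read counts were used, so depth is unknown and no counting interval can be given.

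Peak bp were summed in RefSeq GRCm38.p6 gene bodies with 5000 bp on either side. Values were log2(bp + 500), less the library median. Fold changes on this scale understate changes of low genes. Genes with a mean of at least 500 bp (14589 of 21887) entered 1 limma 3.58.1 model (R 4.3.3, trended and robust) over the 4 groups, with Benjamini-Hochberg adjustment over all of them, a threshold of 0.05 and 4 residual degrees of freedom (3 where mouse entered as a block). Overlaps, starts and motifs were computed with Python 3.11.15. The code was tested on simulated data. Intervals are 95%.

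The mouse tag of the labels (A or B) marks the same mouse across groups, so the libraries are paired by mouse, although deviations of same-lettered libraries correlated by only −0.02 to 0.03 over genes. P-values measure the spread between cultures of these mice. Full values are given for members that passed in any of 7 contrasts, pathway genes are named where they passed, and other members were named after their values were seen. Members and lists were chosen with earlier results of these data known. Alternatives tried were other pseudocounts, filters, windows, peak sets, weights and model settings, the block, and each library left out. Other peak-list columns and sequences beyond the printed promoters were not used here.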

Additional observations from a re-analysis of the deposited data

How the results depend on the processing

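Of the results for single members, those of Cenpa, Plk1 and Tk1 for the average PAM3 effect passed without each library in turn, and the calls over the whole window or at the start that were lost without 1 library are given with the members. All settings, including the reported ones, gave 972 values. Only the log2 changes of single members among them were checked for reversal, and 5 reversed. Counts and class medians were judged by how far they moved, and some medians changed sign. Plk1 was 0.93 with −log10 q of at least 5 and 0.46 with equal covered length for 25HC then PAM3 against 25HC, and 0.76 with −log10 q of at least 5 for the average PAM3 effect. E2f8 was −0.16 in the 1 kb at the start for the average PAM3 effect, and 0.29 with −log10 q of at least 5 for the difference of the PAM3 responses. Settings that rank or weight peaks by the deposited −log10 q or fold rest on columns that hardly correlated between libraries of a group. Counts that moved by more than 1.5 times and medians that moved by more than the replicate SD follow.

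With the replicate block, which pairs the libraries by mouse, 0 members passed for PAM3 against untreated and 0 for 25HC then PAM3 against 25HC, and 5 of 7 passed for the average PAM3 effect. In the tests where no member passed as reported, the block changed no member's call.

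For PAM3 against untreated the number of members that passed, 3 as reported and 0 to 2 without 1 library, became 1 with 10 kb flanks, equal peak numbers, no median subtraction and peaks of at least 500 bp and 0 with −log10 q of at least 5, equal covered length, fold weights and the replicate block. Over all genes the number for PAM3 against untreated, 564 as reported and 160 to 872 without 1 library, became 178 with the 1 kb at the start, 0 with −log10 q of at least 5, 284 with equal peak numbers, 2 with equal covered length, 30 with fold weights, 321 with no median subtraction, 168 with the replicate block and 267 with equal covered length in longest peaks. For 25HC then PAM3 against 25HC the number of members that passed, 3 as reported and 0 to 3 without 1 library, became 1 with no filter, 10 kb flanks and equal peak numbers and 0 with −log10 q of at least 5, equal covered length, fold weights, the replicate block and equal covered length in longest peaks. The number over all genes for 25HC then PAM3 against 25HC, 733 as reported and 108 to 819 without 1 library, became 264 with the 1 kb at the start, 0 with −log10 q of at least 5 and equal covered length, 383 with equal peak numbers, 125 with fold weights, 360 with no median subtraction, 281 with the replicate block and 462 with equal covered length in longest peaks. For 25HC against untreated the number of members that passed, 0 as reported and 0 to 1 without 1 library, became 2 with the 1 kb at the start and 1 with equal covered length in longest peaks. Over all genes the number for 25HC against untreated, 5 as reported and 0 to 97 without 1 library, became 25 with no filter, 12 with the gene body alone, 0 with 10 kb flanks, −log10 q of at least 5, equal covered length, fold weights and the replicate block, 29 with the 1 kb at the start, 13 with neither trend nor robust fit, 9 with other gene bodies left out, 8 with peaks of at least 500 bp and 15 with equal covered length in longest peaks. For 25HC then PAM3 against PAM3 the number of members that passed, 0 as reported and 0 to 1 without 1 library, became 1 with the gene body alone and the 1 kb at the start. The number over all genes for 25HC then PAM3 against PAM3, 190 as reported and 0 to 432 without 1 library, became 95 with the 1 kb at the start, 0 with −log10 q of at least 5, equal covered length, fold weights and the replicate block, 59 with equal peak numbers, 91 with no median subtraction and 87 with equal covered length in longest peaks. For the difference of the PAM3 responses 0 members passed as reported and in every setting run with all 8 libraries. At the start, some fits without 1 library called members for this difference, among them E2f8. Over all genes the number for the difference of the PAM3 responses, 0 as reported and 0 to 192 without 1 library, became 3 with a pseudocount of 100 bp, 49 with no filter, 9 with the gene body alone, 56 with the 1 kb at the start, 32 with neither trend nor robust fit, 25 with other gene bodies left out, 7 with peaks of at least 500 bp and 5 with equal covered length in longest peaks. For the average PAM3 effect the number of members that passed, 7 as reported and 3 to 6 without 1 library, became 0 with −log10 q of at least 5 and equal covered length, 4 with equal peak numbers and 3 with fold weights and equal covered length in longest peaks. The number over all genes for the average PAM3 effect, 1724 as reported and 694 to 1872 without 1 library, became 476 with the 1 kb at the start, 0 with −log10 q of at least 5, 186 with equal covered length, 583 with fold weights, 1095 with no median subtraction and 1123 with equal covered length in longest peaks. For the average 25HC effect 0 members passed as reported. That number became 1 with neither trend nor robust fit and with equal covered length in longest peaks. At the start, some fits without 1 library called members for the average 25HC effect, among them Prc1. Over all genes the number for the average 25HC effect, 10 as reported and 0 to 240 without 1 library, became 19 with a pseudocount of 100 bp, 0 with a pseudocount of 1000 bp, 10 kb flanks, −log10 q of at least 5, equal peak numbers, equal covered length, fold weights, no median subtraction and the replicate block, 61 with no filter, 44 with the gene body alone, 54 with the 1 kb at the start and other gene bodies left out, 62 with neither trend nor robust fit, 17 with peaks of at least 500 bp and 16 with equal covered length in longest peaks.

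For PAM3 against untreated the members that passed at the start, 3 as reported and 1 to 5 without 1 library, became 0 with the replicate block. At the start the number of members that passed for 25HC then PAM3 against 25HC, 3 as reported and 0 to 5 without 1 library, became 0 with the replicate block. For 25HC against untreated the members that passed at the start, 2 as reported and 0 to 2 without 1 library, became 0 with the replicate block. At the start the number of members that passed for 25HC then PAM3 against PAM3, 1 as reported and 0 to 2 without 1 library, became 0 with the replicate block. At the start the number of members that passed for the average PAM3 effect, 6 as reported and 2 to 8 without 1 library, became 1 with the replicate block.

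The S-phase median of the average PAM3 effect, 0.021 as reported and −0.019 to 0.11 without 1 library, became −0.058 with the 1 kb at the start, −0.40 with −log10 q of at least 5, −0.20 with equal covered length, −0.18 with fold weights and 0.13 with equal covered length in longest peaks. The S-phase median of the average 25HC effect, 0.019 as reported and −0.012 to 0.042 without 1 library, became −0.46 with −log10 q of at least 5, −0.036 with equal covered length and −0.070 with fold weights. The mitotic median of the average PAM3 effect, −0.0099 as reported and −0.042 to 0.019 without 1 library, became −0.13 with the 1 kb at the start, 0.11 with −log10 q of at least 5, −0.11 with equal covered length and 0.084 with fold weights. The mitotic median of the average 25HC effect, −0.037 as reported and −0.079 to 0.0020 without 1 library, became −0.20 with −log10 q of at least 5, −0.15 with fold weights and 0.10 with equal covered length in longest peaks. Peaks at the gene start in all 8 libraries were found for 25 members, and for 2 with −log10 q of at least 5. Depth is unknown, so nothing can be said of what deeper libraries would call. The settings with other gene bodies left out, peaks of at least 500 bp, equal covered length in longest peaks, and the settings of the start window were chosen after seeing the data. Without 1 library a group of 1 is assumed to vary like the others.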
